A study of Mus musculus with 6 samples.

Results

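The S100 genes studied here are 8 members of the S100 calcium-binding family, taken from the deposited tables by gene symbol: S100a1, S100a4, S100a6, S100a8, S100a9, S100a10, S100a11 and S100a13. The tables list 21878 genes, of which 10620 were tested. All 8 members had at least 1 FPKM (fragments counted per kilobase of transcript, relative to library depth) in every library, so none entered the test through a single diet. RNA had been sequenced from sorted mouse bone marrow cells that carry the label LT-HSC, the long-term stem cells at the top of blood formation. The gate took cells negative for lineage antigens, CD34 and CD135 and positive for c-Kit and Sca1. The mice, all of WT genotype, had eaten a serine/glycine-free diet (SGFD; 3 libraries) or a control diet (CD; 3 libraries) for 3 months. The labels used here give neither sex nor age. They also do not say whether libraries came from separate mice or from pools, so the spread behind each p-value may be partly technical. The comparison asks how expression differs in these cells when both amino acids are missing from food.

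S100 proteins are small calcium-binding proteins found in vertebrates. Each carries a pair of EF-hand loops, and most work as dimers that change shape when calcium binds and then grip a partner protein. S100A8 and S100A9 form calprotectin, which fills the cytosol of neutrophils, withholds zinc and manganese from microbes and, once released, acts on TLR4 of innate immune cells. Several other members are found in many cell types and act on the cytoskeleton, on annexins at membranes or on the export of proteins without a signal peptide. In the mouse, S100a6 has been described as a regulator of stem cell function in the blood.

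The 8 genes lie on chromosome 3 (RefSeq, GRCm38.p6) in separate clusters. The larger one holds S100a1 (90511034 to 90514330), S100a13 (90514233 to 90524581), S100a4 (90603770 to 90606045), S100a6 (90612894 to 90614414), S100a8 (90669071 to 90670034) and S100a9 (90692630 to 90695721). S100a11 (93520496 to 93526288) and S100a10 (93555117 to 93564645) stand together further along. S100a1 and S100a13 are transcribed from opposite strands and overlap by 98 bases at their starts. The library kit marks strand, but whether counting used it is not given in the sources used here, so a small part of the reads of this pair may be shared. S100a11 has a pseudogene, S100a11-ps on chromosome 12, which could also share reads.

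Windows of 300 bases around the annotated starts (250 before, 50 after, RefSeq, GRCm38.p6) were available for 7 of the 8 genes. Those of the genes with the largest fold changes, S100a8, S100a9 and S100a4, are shown with that of S100a11, the most abundant member. Each is read in the direction of its gene, and capitals mark matches to TATAAA (the TATA box core), GAGGAAGT (bound by ETS factors such as PU.1), TGANTCA (AP-1) or TTGCNNAA (C/EBP), searched on both strands. No matches overlapped. The motifs were chosen with the sequences in view.
S100a8: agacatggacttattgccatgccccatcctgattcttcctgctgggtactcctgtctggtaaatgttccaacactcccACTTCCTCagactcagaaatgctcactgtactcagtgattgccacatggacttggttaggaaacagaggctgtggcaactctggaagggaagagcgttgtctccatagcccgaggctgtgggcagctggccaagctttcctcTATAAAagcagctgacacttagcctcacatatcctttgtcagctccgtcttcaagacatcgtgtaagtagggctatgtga
S100a9: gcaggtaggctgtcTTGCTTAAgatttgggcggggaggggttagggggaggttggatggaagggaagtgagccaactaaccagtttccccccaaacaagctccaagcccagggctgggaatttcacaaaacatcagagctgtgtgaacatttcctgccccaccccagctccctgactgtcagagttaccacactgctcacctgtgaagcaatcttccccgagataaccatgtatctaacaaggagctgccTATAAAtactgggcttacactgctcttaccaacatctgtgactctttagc
S100a4: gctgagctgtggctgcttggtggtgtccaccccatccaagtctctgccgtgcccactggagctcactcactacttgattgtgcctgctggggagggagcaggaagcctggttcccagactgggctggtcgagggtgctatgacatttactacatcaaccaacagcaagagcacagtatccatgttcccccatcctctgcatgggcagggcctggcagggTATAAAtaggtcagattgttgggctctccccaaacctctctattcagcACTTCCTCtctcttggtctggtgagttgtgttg
S100a11: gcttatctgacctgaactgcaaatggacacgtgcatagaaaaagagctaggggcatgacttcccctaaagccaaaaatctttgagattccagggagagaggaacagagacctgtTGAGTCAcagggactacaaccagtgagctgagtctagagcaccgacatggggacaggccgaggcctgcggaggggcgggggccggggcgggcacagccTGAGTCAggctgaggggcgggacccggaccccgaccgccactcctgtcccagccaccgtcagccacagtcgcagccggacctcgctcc
The windows run over chr3:90668821-90669120 on the plus strand for S100a8, chr3:90695672-90695971 on the minus strand for S100a9, chr3:90603520-90603819 on the plus strand for S100a4 and chr3:93520246-93520545 on the plus strand for S100a11. TATAAA began 30 bases before the annotated start of S100a8 and 31 before that of S100a4, and in S100a9 at the annotated start itself. Of 32851 windows of this kind in the table, 13.6% held TATAAA on either strand. On the gene's own strand 40 to 20 bases before the start, where a TATA box works, it was found in 1.99% of windows, S100a8 and S100a4 among them. The 4 members S100a1, S100a6, S100a11 and S100a13 had no TATAAA. The reverse complement of GAGGAAGT, ACTTCCTC, lay in the windows of S100a8 and S100a4 (3.20% of all windows hold the motif), a C/EBP match lay in that of S100a9 (10.8%), and S100a11 held 2 AP-1 matches (7.81% hold at least 1). The ratio of observed to expected CpG dinucleotides was 0.21 for S100a8, 0.10 for S100a9 and 0.09 for S100a4, against a median of 0.38 over all windows. It was 0.53 for S100a11, 0.53 for S100a13, 0.40 for S100a1 and 0.33 for S100a6, and the windows of S100a1 and S100a13 share 204 bases.

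Depth was even across libraries. Whole fragments recovered from the deposited values came to 18440968 to 19531159 per SGFD library and 18427138 to 18747280 per CD library. The first principal component, with 82.2% of the variance, separated the diets, and the second, with 7.25%, set SGFD replicate 2 (10.77) apart from SGFD replicate 3 (-8.90). The mRNAs of both antigens that the gate selects against were abundant in all libraries, at 429 FPKM with SGFD and 471 with CD for Cd34 and at 90.5 and 114 FPKM for Flt3. Of 14 tested LT-HSC markers 12 fell and none rose, where 41.8% of all tested genes were called lower and 17.7% higher, and the summed level of the list was 263 to 270.3 FPKM with SGFD against 447 to 449 with CD. T cell markers summed to 15.3 to 16.9 FPKM with SGFD against 19.4 to 22.1 with CD, mostly from Lck, with 14.7 FPKM with SGFD and 18.6 with CD. Both T cell markers tested, Lck and Cd4, fell, and Cd3e was at 0 in all libraries. More cells of a type and more RNA per cell cannot be told apart in bulk samples.

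S100a8 and S100a9 about doubled with SGFD, and S100a4, S100a6, S100a1 and S100a11 rose by less. S100a10 and S100a13 did not pass. In all, 6 of the 8 members rose and none fell (limma on log2(FPKM + 1), adjusted p under 0.05), against the 17.7% of all tested genes called higher and 41.8% called lower, 59.4% in all. The median log2 fold change was 0.34 over the 8 members and -0.13 over all tested genes, so each member stood 0.13 further above the typical gene than its own value says. In 5 of the 8, all but S100a6, S100a10 and S100a13, the 3 SGFD libraries lay above the 3 CD libraries, which held for 19.6% of all tested genes. None of the 8 had all SGFD libraries below all CD libraries, as 45.5% of genes did, and 65.2% of genes had no overlap in one direction or the other.

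The subunits of calprotectin, an alarm protein of neutrophils, changed alike. S100a8 had 9.55, 10.6 and 9.85 FPKM in the SGFD libraries, against 3.86, 5.69 and 4.88 FPKM in the CD libraries. S100a9 had 8.54, 10.2 and 11.1 FPKM with SGFD, against 5.48, 4.05 and 4.87 FPKM with CD. For both genes every SGFD library lay above every CD library. The ratio of mean levels was 2.08 for S100a8 and 2.07 for S100a9. The log2 fold change was 0.93 ± 0.11 (SE, n = 3 each) for S100a8 (limma, adjusted p = 6.78e-05) and 0.92 ± 0.11 for S100a9 (limma, adjusted p = 8.82e-05). Both passed under all 14 alternatives, with log2 fold changes of 0.81 to 1.14 for S100a8 and 0.79 to 1.14 for S100a9. Few fragments stood behind these levels: 72, 83 and 73 for S100a8 with SGFD against 29, 42 and 36 with CD, and 86, 107 and 110 for S100a9 against 55, 40 and 48. The lowest SGFD value of S100a8, 9.55 FPKM, had a 95% Poisson interval of 7.48 to 12, and the highest CD value, 5.69 FPKM, one of 4.10 to 7.68, so these libraries overlapped within counting error although the groups differed. The intervals cover counting error only and rest on recovered fragment numbers, which imply a length of 401 bases for S100a8, where annotated transcripts have 486 to 498. S100a8 varied by 5.34% (coefficient of variation) between SGFD libraries and by 19.0% between CD libraries, where counting alone gives 11.5% and 16.7%. Its SGFD spread thus lay below counting error, so the SE and p of S100a8 may be too small. S100a9 varied by 13.1% with SGFD and 14.9% with CD, where counting alone gives 9.95% and 14.5%. These spreads were not far above counting error, so the SE and p of S100a9 call for the same caution. The ratio of S100a8 to S100a9 was 1.12, 1.04 and 0.887 with SGFD and 0.705, 1.40 and 1.0 with CD, and these ranges overlapped.

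Markers of several blood cell types moved in the same libraries. Of 7 tested azurophil granule markers all 7 rose (17.7% of all tested genes did), and their summed level was 3652 to 4060.4 FPKM with SGFD against 1009 to 1047 FPKM with CD. Led by Elane, Ctsg and Ms4a3 in order of p, this list had a median log2 fold change of 1.84; 6 of the 7 passed after quantile normalization, after scaling to the FPKM sum and without CD replicate 1. Of 15 listed secondary granule and mature neutrophil markers 6 were tested, of which 5 rose and 1, Padi4, fell. The filter admitted 4 of these 6 through SGFD alone, Lcn2 and Ifitm6 among them, so their count was partly fixed by the filter. Without any 1 SGFD library 2 were tested, of which 1 rose. The summed level of the 15 was 48.6 to 49.7 FPKM with SGFD against 40 to 42.3 FPKM with CD. Padi4 held the largest part of this sum on both diets, with 24.4 FPKM with SGFD against 36.8 with CD. Its fall hides rises of lower genes in the sum, such as Lcn2, with 12.2 FPKM with SGFD against 0.288 with CD. None of the 15 was at 0 in all libraries, but Ly6g, the surface antigen of mature mouse neutrophils, averaged 0.0188 FPKM with SGFD and 0.0189 with CD. Monocytes also express S100a8 and S100a9, and of 10 tested monocyte markers 9 rose, with a summed level over the list of 411 to 440.1 FPKM with SGFD against 241 to 249 with CD. Ly6c2 averaged 70.0 FPKM with SGFD against 9.63 with CD, and F13a1 29.7 FPKM with SGFD against 4.41 with CD. Other lists moved down, where 41.8% of all tested genes did. All 6 tested macrophage markers fell, each admitted by the filter through CD alone, and the list summed to 2.51 to 3.08 FPKM with SGFD against 11.8 to 12.8 with CD. B cell markers fell in 3 of 4 tested cases (25.8 to 26.4 FPKM in sum with SGFD against 28.2 to 38.5 with CD), and 2 of the 4 were admitted through CD alone. Erythroid markers fell in 4 of 5 (103 to 107 FPKM in sum with SGFD against 223 to 229 with CD), mostly from Car2, with 89.4 FPKM with SGFD and 192 with CD. Megakaryocyte markers fell in 2 of 6, with 1 rise (74.9 to 76.1 FPKM in sum with SGFD against 102 to 105 with CD). The part of any of these cells in the rise of S100a8 and S100a9 was not tested. Elane (neutrophil elastase), with 344 ± 13.1 FPKM with SGFD against 44.8 ± 1.14 with CD (SD, n = 3 each), rose far more than either S100 subunit. There were 0.0288, 0.0310 and 0.0275 FPKM of S100a8 per FPKM of Elane with SGFD, against 0.0844, 0.126 and 0.112 with CD. This ratio differed by -1.87 on the log2 scale, and that of S100a9 to Elane by -1.89. Both had an exact two-sided permutation p of 0.1, the smallest that 3 against 3 libraries allow (0.1 also after adjustment over the 3 ratios computed). Elane was the list's gene of smallest p, so the direction of these ratios followed from that choice and the p adds nothing to it. Serpinb1a alone of the 7 tested azurophil markers rose by less than S100a8 (0.20 against 0.93 on the log2 scale).

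S100a4 had the next largest rise. Its product, also called metastasin, binds non-muscle myosin and is made by many motile cells, myeloid cells included. S100a4 had 11.4, 13.2 and 12.2 FPKM with SGFD, against 6.25, 8.80 and 8.98 FPKM with CD. The groups did not overlap, and CD replicate 1 was the lowest of the 6 libraries. The ratio of means was 1.54 and the log2 fold change 0.58 ± 0.12 (SE; limma, adjusted p = 0.00178). It passed under all 14 alternatives, from 0.43 to 0.76.

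S100a6 (calcyclin), which binds the ubiquitin-ligase adaptor CacyBP, had 14.9, 10.9 and 17.1 FPKM with SGFD, against 12.6, 10.1 and 9.24 FPKM with CD. SGFD replicate 2 fell within the CD range, and SGFD replicate 3 was the highest. These are the libraries at opposite ends of the second principal component. S100a6 varied by 22.1% between SGFD libraries, where counting alone gives 7.11%. The log2 fold change was 0.38 ± 0.15 (SE; limma, adjusted p = 0.0425), and without SGFD replicate 2 it was 0.55 (limma, adjusted p = 0.00216). The call was lost in 6 of 14 alternatives: without CD replicate 2 (0.124) or 3 (0.164), without SGFD replicate 1 (0.123) or 3 (0.150), without the filter on low values (0.118) and after scaling to the FPKM sum (0.139), over a range of adjusted p from 0.00216 to 0.164 in limma.

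S100a1, best known in heart muscle and neurons, where it acts on calcium release channels and the contractile apparatus, was the most abundant member after S100a10 and S100a11. It had 36.5, 43.9 and 43.4 FPKM with SGFD, against 31.9, 33.2 and 34.4 FPKM with CD, and the groups did not overlap. The log2 fold change was 0.30 ± 0.07 (SE; limma, adjusted p = 0.00377). It passed in 13 of 14 alternatives and missed the threshold after scaling to the FPKM sum (limma, adjusted p = 0.0628, the highest of a range from 0.000583). S100a13, whose product helps to export FGF1 and interleukin-1 alpha from cells, starts on the opposite strand beside S100a1. It had 17.8, 20.9 and 23.8 FPKM with SGFD, against 19.3, 20.6 and 17.2 FPKM with CD. SGFD replicate 1 lay inside the CD range and replicates 2 and 3 above it. The log2 fold change of 0.12 ± 0.10 (SE) did not pass (limma, adjusted p = 0.325) in this or any of 14 alternatives, and its sign turned to -0.021 after scaling to the FPKM sum.

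S100a10 and S100a11, which dock on annexins, were far more abundant than the other members. S100a10 (p11) has lost calcium binding and pairs with annexin A2, while S100a11 pairs with annexin A1. S100a11 had 177, 186 and 183 FPKM with SGFD, against 147, 155 and 163 FPKM with CD, and the groups did not overlap. Its log2 fold change was 0.23 ± 0.04 (SE; limma, adjusted p = 0.0015). The call was lost after quantile normalization (0.436) and after scaling to the FPKM sum (0.0988), within a range of adjusted p from 0.000182 to 0.436 in limma. S100a10 had 151, 146 and 156 FPKM with SGFD, against 148, 139 and 139 FPKM with CD, and SGFD replicate 2 lay below CD replicate 1. The log2 fold change of 0.08 ± 0.04 (SE) did not pass (limma, adjusted p = 0.107). Its call depended on scaling: S100a10 passed as higher after median-ratio scaling (0.21, adjusted p = 0.00432) and without SGFD replicate 2 (0.109, adjusted p = 0.0362), while its sign turned after quantile normalization (-0.071) and scaling to the FPKM sum (-0.057), in a range of adjusted p from 0.00432 to 0.279 in limma.

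**Figure D1:**
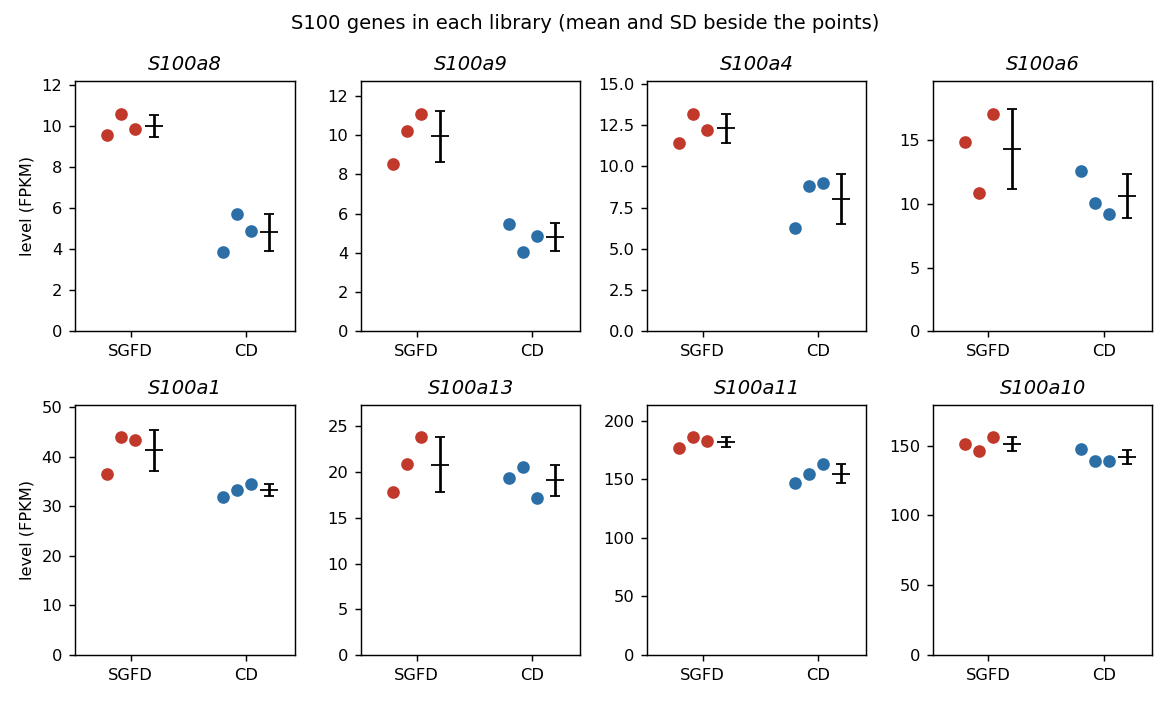
Level in FPKM (vertical axis, from 0) of each S100 gene in the 3 SGFD libraries (red) and 3 CD libraries (blue), with mean and SD in black. S100a8 and S100a9 show the widest gap between the diets relative to their levels, with means of 10 and 9.95 FPKM against 4.81 and 4.80 FPKM, while S100a6, S100a10 and S100a13 overlap.

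**Figure D2:**
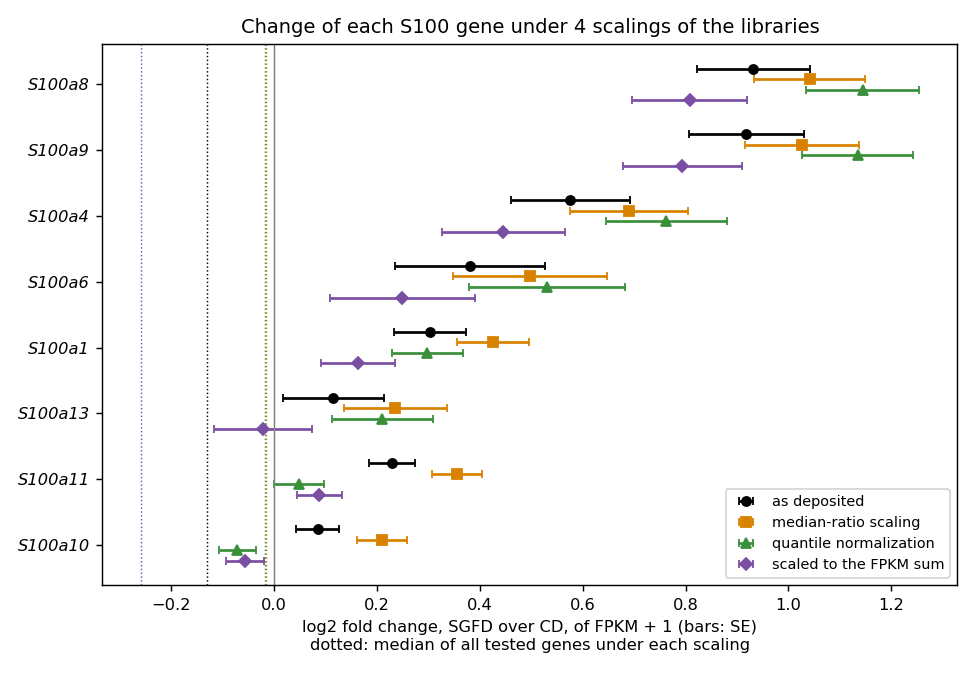
Log2 fold change of FPKM + 1, SGFD over CD (horizontal axis), with SE bars, for each gene as deposited (black) and after 3 other scalings of the libraries; dotted lines mark the median of all tested genes under each. S100a8, S100a9 and S100a4 stay above 0 under all 4 scalings, the lowest value being 0.446 for S100a4, while S100a10 lies on both sides of 0.

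The order of mean levels was the same on both diets. With SGFD the means were 182 FPKM for S100a11, 151 for S100a10, 41.3 for S100a1, 20.8 for S100a13, 14.3 for S100a6, 12.3 for S100a4, 10 for S100a8 and 9.95 for S100a9. The CD means were 155, 142, 33.2, 19.1, 10.6, 8.01, 4.81 and 4.80 FPKM in the same order. Of neighbours in this order, S100a6 and S100a4 overlapped with SGFD, S100a11 and S100a10 with CD, and S100a8 and S100a9 on both diets. S100a11 and S100a10 stood near the top of the transcriptome, with CD means above those of 96.8% and 96.3% of tested genes. S100a8 and S100a9 stood low, with means above those of 45.5% and 45.4% of tested genes with SGFD and 21.4% of them for each gene with CD. S100a10 and S100a11 together made up 74.2% to 76.9% of the FPKM summed over the 8 members with SGFD and 78.1% to 79.1% with CD.

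Relative to the widely expressed members, the neutrophil pair was higher in each SGFD library than in any CD library. S100a8 and S100a9 together held 4.24%, 4.72% and 4.60% of the FPKM summed over the 8 members in the SGFD libraries, against 2.50%, 2.58% and 2.55% in the CD libraries. The mean log2(FPKM + 1) of the pair minus that of the other 6 was -1.98, -1.83 and -1.95 with SGFD, against -2.58, -2.58 and -2.53 with CD. The groups did not overlap in either measure. The difference between diets on this log2 scale was 0.64, from -1.92 ± 0.08 with SGFD and -2.56 ± 0.03 with CD (SD, n = 3 each). No test was run on this score, because the members were chosen with results known. Summed over the 8 members, the level was 427, 441 and 456 FPKM with SGFD, against 374, 377 and 381 FPKM with CD. All genes together also summed to more FPKM per library with SGFD, at 464222 to 485048 against 427769 to 433592 with CD.

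**Figure D3:**
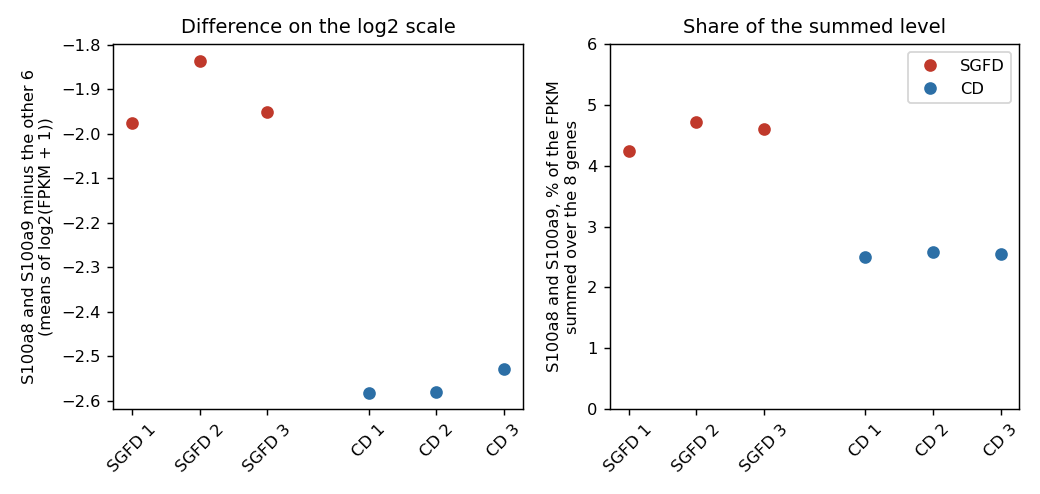
Left, mean log2(FPKM + 1) of S100a8 and S100a9 minus that of the other 6 genes in each library; right, their percentage of the FPKM summed over the 8 genes. The SGFD libraries (red) lie between -1.98 and -1.83 and between 4.24% and 4.72%, above all CD libraries (blue).

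The rest of the family was nearly silent. Of 10 other S100 genes looked for, 9 were listed and none reached the filter. S100a14, S100g and S100z were listed at 0 in all libraries. S100a5, an olfactory member that lies between S100a4 and S100a6, had 15, 11 and 4 fragments with SGFD and 7, 5 and 1 with CD, and the groups overlapped. S100a2, S100a3, S100a7a, S100a16 and S100b had at most 3 fragments in any library. The 8 members held 99.7% to 99.9% of all S100 FPKM in each library.

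The only tested genes beside the clusters, Ints3, Ilf2, Snapin and Chtop, lay on the S100a1 side of the larger one. None of them rose, and Ints3 and Chtop fell. Of all tested genes 17.7% were called higher and 41.8% lower, and so few neighbours cannot be set apart from those shares. On the S100a1 side of the larger cluster, Ints3, an Integrator subunit, had 22.5 ± 0.265 FPKM with SGFD and 26.9 ± 0.737 with CD (SD, n = 3 each) and fell (limma, adjusted p = 0.00165). Chtop, a factor of mRNA export, had 55.8 ± 0.657 and 65.5 ± 1.03 FPKM and also fell, but its fold change of -0.102 (log2) after median-ratio scaling did not pass. Ilf2 and Snapin did not pass, with log2 fold changes of 0.10 and -0.03, and Npr1 was below the filter. On the S100a9 side Pglyrp4, Pglyrp3, Gm36323 and Gm35185 were listed at 0 in all libraries. The genes around S100a11 and S100a10 were keratinocyte genes such as Flg (filaggrin) and Hrnr and the Tdpoz genes, which were listed at 0, and Tchh (trichohyalin), at 0.0119 FPKM with SGFD and 0.00304 FPKM with CD.

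Annexins, the calcium-dependent membrane-binding partners of several S100 proteins, went both ways: among 9 tested genes there were 3 rises and 2 falls, beside 17.7% of all tested genes higher and 41.8% lower. Anxa2, whose product binds S100A10, had 64.6, 61.4 and 63.6 FPKM with SGFD, against 39.0, 41.1 and 40.9 FPKM with CD (limma, adjusted p = 2.42e-06). Anxa1, the partner of S100A11, had 82.2, 78.1 and 83.3 FPKM with SGFD, against 64.3, 66.8 and 65.0 FPKM with CD, and also rose. Every SGFD library lay above every CD library for both. Anxa3, an annexin abundant in neutrophils, rose most of the list, with 34.5 ± 1.01 FPKM with SGFD against 9.61 ± 0.836 with CD (SD, n = 3 each). Anxa4, found mainly in epithelia, fell, with 17.0 ± 0.207 FPKM with SGFD against 23.6 ± 1.13 with CD. Since Anxa2 rose and S100a10 did not pass, the 2.33, 2.37 and 2.45 FPKM of S100a10 per FPKM of Anxa2 with SGFD lay below the 3.79, 3.39 and 3.40 with CD. This ratio differed by -0.56 on the log2 scale (exact two-sided permutation p = 0.1, the smallest possible). As the changes of both genes were already known, the direction of this ratio followed from them and the p adds nothing to it. The list's median log2 fold change was 0.07, and -0.07 after scaling to the FPKM sum.

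Other intracellular partners had 2 rises and 5 falls among 8 tested genes (median -0.15 on the log2 scale), close to all tested genes, of which 17.7% were higher and 41.8% lower with a median of -0.13. After median-ratio scaling there were 2 of each, and 2 falls were left without CD replicate 1, CD replicate 3 or SGFD replicate 1. S100pbp, whose human product is a nuclear protein that binds S100P, had 6.05, 5.97 and 5.15 FPKM with SGFD, against 10.6, 10.1 and 9.77 FPKM with CD, a log2 fold change of -0.73 ± 0.08 (SE; limma, adjusted p = 4.1e-05). The nucleolar protein gene Ncl rose, with 319.8 ± 15.6 FPKM with SGFD against 240.3 ± 5.38 with CD (SD, n = 3 each). Cacybp, the S100A6 partner, rose to 81.9 ± 0.602 FPKM with SGFD, against 72.3 ± 1.91 with CD, but did not pass after quantile normalization or scaling to the FPKM sum (log2 fold changes of 0.072 and 0.037). Myh9, the myosin heavy chain that S100A4 binds, fell to 106 ± 2.09 FPKM with SGFD, against 121 ± 1.34 with CD, and did not pass after median-ratio scaling (-0.063). Ryr2, Fgf1, Il1a and Dlc1, tied to S100 proteins in other tissues, were below the filter.

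Receptors and adaptors through which extracellular S100A8 and S100A9 can act were higher in 5 of 8 tested cases and lower in 1, beside 17.7% and 41.8% of all tested genes, and the median over the 8 was 0.28 on the log2 scale. With any SGFD library left out Cd14 no longer reached the filter, and 4 of 7 were higher. Cd14, the TLR4 coreceptor, had 4.01, 3.61 and 4.20 FPKM with SGFD, against 0.440, 0.735 and 0.384 FPKM with CD, and it passed the filter through SGFD alone. The adaptor gene Myd88 had 33.4 ± 0.486 FPKM with SGFD against 25.5 ± 1.04 with CD (SD, n = 3 each), and Cd68 had 21.7 ± 1.29 against 13.9 ± 0.439 FPKM. Scarb1 had 27.4 ± 0.216 FPKM with SGFD against 21.6 ± 0.365 FPKM with CD. Cd14 and Cd68 are also genes of monocytes, of which 9 of 10 tested markers rose; their part in these rises was not tested. Tlr4 itself, named after its value was seen because it was the list's only fall, had 1.60 ± 0.0330 FPKM with SGFD against 2.28 ± 0.229 with CD and did not pass after quantile normalization (-0.063). Ager, which encodes the receptor RAGE, and Cd36 were below the filter.

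**Figure D4:**
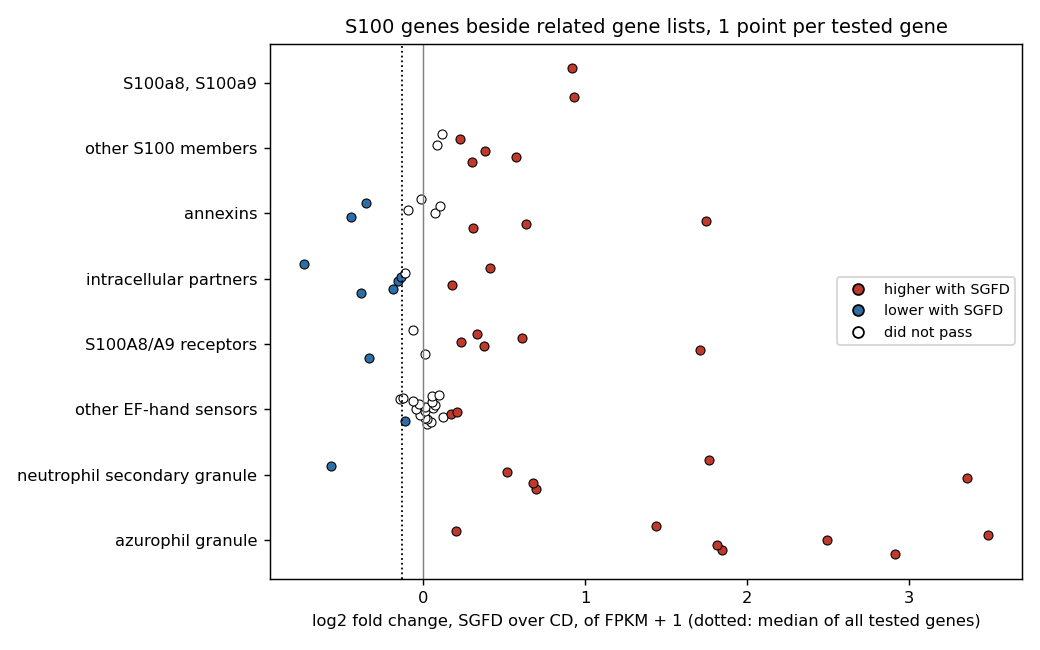
Log2 fold change of FPKM + 1, SGFD over CD (horizontal axis), of each tested gene in 8 lists, filled red where higher, blue where lower and white where the gene did not pass; the dotted line is the median of all tested genes, -0.13. S100a8 and S100a9, at 0.93 and 0.92, lie above the other S100 members and below most azurophil granule genes.

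Other EF-hand calcium sensors had few calls as deposited: among 21 tested genes there were 2 rises and 1 fall, where 59.4% of all tested genes were called (17.7% higher, 41.8% lower), and the median over the list was 0.02 on the log2 scale. Efhd2 (swiprosin-1, a calcium sensor of immune cells) had 47.0 ± 2.32 FPKM with SGFD and 41.5 ± 1.34 with CD, and Cib1 had 29.2 ± 2.54 and 25.2 ± 2.69 FPKM (SD, n = 3 each); both are the rises. Calm3, a calmodulin gene, was the fall, with 152 ± 5.34 FPKM with SGFD against 164 ± 1.83 FPKM with CD, and its sign turned after median-ratio scaling (0.016). Leaving out 1 library ended the call of Efhd2 (without CD replicate 2 or SGFD replicate 1), of Cib1 (without CD replicate 1 or 3, or SGFD replicate 2 or 3) or of Calm3 (without any library but SGFD replicate 3). These small calls also moved with scaling, as 12 rose and none fell after median-ratio scaling, and none rose and 11 fell after scaling to the FPKM sum.

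The genes whose profile over the 6 libraries was most like that of S100a8 were Thyn1, Pno1 and Grn, with Pearson correlations of log2(FPKM + 1) of 0.995, 0.994 and 0.994. For S100a9 they were Pin4, Sdf2l1 and Lman1, with 0.998, 0.992 and 0.991. The correlation of S100a8 with S100a9 was 0.864. Correlations above 0.9 are common here, since the 6 points form 2 groups by diet: 8.68% of tested genes exceeded 0.9 with S100a8. The share reaching the values of the named genes, the highest of all tested genes, was not counted. For S100a6, whose SGFD libraries were spread, the closest were Rtn4r, Abhd17c and Aph1a, with 0.985, 0.984 and 0.980, and 1.11% of genes exceeded 0.9.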

How the data were processed

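RNA was sequenced in 6 libraries, 3 per diet. Per the submitters' processing notes, the tools were fastp, HISAT2 and StringTie, without versions, and the builds named are mm10 and GRCm38. The deposited tables give 1 value per gene symbol and library, which was read as FPKM because of its steps and sums, since no source states a unit. For 15508 of 15509 genes above 0, the deposited FPKM were whole multiples of a step within 0.02 fragments, and 8 of 300 genes with perturbed values also passed this search, so fragment numbers are an inference. The lengths they imply lay within or near those of GENCODE transcripts for some members (516 against 511 bases for S100a11) and outside them for others (642 against 336 to 498 for S100a4, 986 against 715 for S100a13). FPKM were tested with limma 3.58.1 in R 4.3.3 on log2(FPKM + 1), with trend and robust settings, for 10620 genes (1 FPKM or more in 3 or more libraries), Benjamini-Hochberg adjusted at 0.05. This scale understates changes of low genes. The 27 rows named by dates stayed in.

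The members and lists were chosen with earlier results of these data known. All members and other S100 genes were named, and from each list up to 4 genes of smallest p, up to 3 for marker lists; a few named beyond this rule were chosen after their values were seen. The 14 alternatives were 2 filters, 2 pseudocounts, 3 scalings (that to the FPKM sum chosen after seeing the data), a replicate block and leaving out each of 6 libraries.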

Additional observations from a re-analysis of the deposited data

How the results depend on the processing

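The rises of S100a8, S100a9 and S100a4 passed under all 14 alternatives; over the 8 members, 98 of the 112 gene and alternative combinations kept direction and call. Scaling mattered most. As deposited, 1875 of 10620 genes were called higher and 4438 lower, 29.7% of calls higher. After median-ratio scaling 2932 were higher (49.7% of calls), after quantile normalization 2552 were lower (47.0% of calls higher), and after scaling to the FPKM sum, added after seeing the data, 1030 were higher (14% of calls) and 3 members passed in place of 6; there the median log2 fold change of all genes was -0.258. S100a10 turned to -0.071 after quantile normalization and -0.057 after scaling to the FPKM sum, and S100a13 to -0.021 after scaling to the FPKM sum; neither passed there. The excess of the neutrophil pair over the other members, 0.643 on the log2 scale, was 0.750 and 0.763 with pseudocounts of 0.1 and 0.01 and 0.843 after quantile normalization. Leaving out 1 library at a time left 5 to 7 members higher and none lower. Same-numbered libraries did not deviate together (correlations of -0.00677, -0.227 and -0.133). Deviations from means of 3 libraries cannot show whether the numbers pair them, so this was left unsettled. With the replicate number as a block, 5793 genes and the same 6 members passed. Where the cause of a change was not shown by the setting itself, the cause was not tested. Depth limits S100a8 and S100a9 most, with 29 to 110 fragments per library.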
